A study of Mus musculus with 5 samples.

Results

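The high-affinity IgE receptor and the stem cell factor receptor KIT together define a mast cell at its surface. The genes described are the 3 chains of the IgE receptor, Fcer1a, Ms4a2 and Fcer1g, and the receptor gene Kit, which were taken by name from a table of 25549 gene models. All 4 were found once each, and all 4 are among the 24071 rows with a p-value. The RNA came from bone marrow-cultured mast cells, a culture grown out of mouse marrow, of age- and sex-matched C57BL/6 mice with 2 genotypes. The control genotype was Cpa3-Cre (n = 2 samples), in which the Cpa3 promoter, active in mast cells, drives the Cre recombinase. The compared genotype was Cpa3-Cre;miR-9∆fl/∆fl (n = 3 samples), the same Cre with the miR-9∆fl/∆fl allele, shortened to miR-9 line below. The labels do not give the age of the mice, whether samples came from separate mice or cultures, or whether recombination adds or removes miR-9, so p-values measure only the spread between the samples and that spread could be technical. Cultures had run for 6 to 8 weeks with recombinant interleukin-3 at 50 ng/mL as the only named cytokine, so no stem cell factor, the ligand of KIT, is listed in the medium. 

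The IgE receptor is assembled from an alpha chain that binds IgE outside the cell, a beta chain and a pair of gamma chains. The beta and gamma chains carry immunoreceptor tyrosine-based activation motifs (ITAMs), which the kinase LYN phosphorylates when antigen cross-links the bound IgE, and the kinase SYK then docks on the gamma chain. The beta chain amplifies this signal, and the gamma chain is shared with several other Fc and innate receptors. KIT is a receptor tyrosine kinase whose signals sustain the survival, growth and migration of mast cells, and mice without working KIT lack most mast cells. Transcription of these genes in mast cells is known to depend on factors that include GATA1, GATA2, MITF and PU.1.

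The series perturbs miR-9, so the sequences that bear on the receptor genes first are the mature miR-9 strands and their matches in the receptor transcripts. Both strands are shown from RefSeq (GRCm38.p6), with the seed, bases 2 to 8, in capitals. The 3 mouse loci Mir9-1, Mir9-2 and Mir9-3 yield the same pair of mature sequences.
miR-9-5p: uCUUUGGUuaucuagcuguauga
miR-9-3p: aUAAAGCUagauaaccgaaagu

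The coding transcripts of the 4 genes were searched in GENCODE M21 (GRCm38) for matches to these seeds. No annotated 3' UTR of Fcer1a or Fcer1g held a match of 6 or more bases to either strand. Their longest 3' UTRs are short, at 209 and 345 bases. Among 3' UTRs within 10 percent of those lengths, 5.32 percent (of 752 genes) and 12.5 percent (of 865 genes) held a match of 6 or more bases to the miR-9-5p seed. Kit, with 2180 bases of 3' UTR, held a 6-base match to each strand and no match of 7 bases. Of 1350 genes with a 3' UTR of similar length, 53.6 percent held a match of 6 or more bases to the miR-9-5p seed and 30.4 percent a match of 7 or 8. Ms4a2 was the member with a 7-base match to miR-9-5p, on its transcript Ms4a2-204. Among genes with a 3' UTR of similar length to the 1953 bases of Ms4a2-204, 28.7 percent (of 1427) had a match of 7 or 8 bases. A match of 6 or more bases to the miR-9-3p seed occurred in 43.2 percent of those 1427 genes. For the 1350 genes near the length of Kit it was 45.5 percent. The matches are printed below on the transcript strand, with the matching bases in capitals and 8 bases on each side.
Ms4a2-204, miR-9-5p match from base 898 of the 3' UTR: atcaaaggACCAAAGgagaaatt
Ms4a2, miR-9-3p match from base 263 of the 3' UTR: ataagttgGCTTTAttgtatgt
Kit, miR-9-5p match from base 1695 of the 3' UTR: gcacctttCCAAAGtaagctgg
Kit, miR-9-3p match from base 291 of the 3' UTR: ctcctcctGCTTTAgaggagaa

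**Figure D1:**
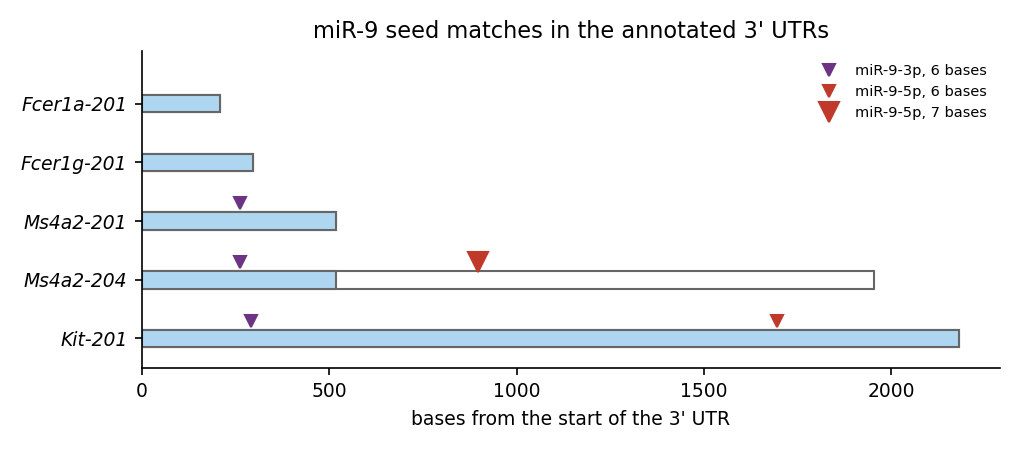
Annotated 3' UTRs of the 4 genes drawn as bars from the first base after the stop codon, in bases; blue marks the part covered by the gene model of the authors' table and white the part outside it. Triangles mark miR-9 seed matches. The 7-base match, from base 898 of the 3' UTR of Ms4a2-204, lies in the white part.

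The 7-base match in Ms4a2 lies at chr19:11616572-11616578 on the minus strand, outside the gene model on which the authors' values rest. That model ends with the shorter 3' UTR of 519 bases, so 1434 bases of the longer form were not part of it. The 6-base match of Ms4a2 at chr19:11617208-11617213 and both matches of Kit (chr5:75656237-75656242 and chr5:75654833-75654838, plus strand) lie inside the models. Ms4a2 also held a 7-base match to miR-9-5p within coding sequence, at chr19:11622728-11622734, which all 4 of its coding transcripts share. The share of other coding sequences with such a match was not computed. A match of this kind is a description of the letters and no evidence of binding.

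None of the 4 receptor genes passed the test between the genotypes. The authors' deposited table gives log2 fold changes from -0.04 for Kit to 0.46 for Fcer1g, positive where the miR-9 line was higher. At a Benjamini-Hochberg adjusted p under 0.05, 0 of 4 were called, against 0.411 percent of all rows with a p-value (99 of 24071). At an unadjusted p under 0.05 the count was also 0 of 4, against 7.92 percent of rows (1906). These counts rest on the p-values of the authors' deposited table, for which the labels name DESeq2. The values per library were not analysed here, so no mean, spread or overlap between samples stands behind the fold changes below.

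Fcer1a encodes the alpha chain, the IgE-binding subunit that marks mast cells and basophils. Its model of 5 exons and 1026 bases lies on chromosome 1 from 173221271 to 173227229 (GRCm38, minus strand). The authors' deposited table lists Fcer1a at a log2 fold change of 0.09, which is 1.06-fold, with p = 0.815 (adjusted p = 0.980). Of all rows with a p-value, 80.7 percent had a larger absolute fold change.

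Ms4a2 encodes the beta chain, the signal amplifier of the receptor and a member of the membrane-spanning MS4A family. The model spans 7 exons and 1322 bases on chromosome 19 from 11616957 to 11623719 (minus strand). The authors' deposited table lists Ms4a2 at 0.10 on the log2 scale, which is 1.07-fold (p = 0.789, adjusted p = 0.977), nearly the value of Fcer1a. A larger absolute change was seen in 78.6 percent of rows.

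Fcer1g encodes the shared gamma chain and had the highest value of the 4. It lies on chromosome 1 from 171229572 to 171234365 (minus strand), with a model of 5 exons and 800 bases. The authors' deposited table lists Fcer1g at a log2 fold change of 0.46, which is 1.38-fold higher in the miR-9 line (p = 0.251, adjusted p = 0.846). This value stood at the 93.0th percentile of all rows, of which 40.2 percent were above 0, with a median of -0.09. By absolute size, 27.4 percent of rows had a larger change.

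Kit encodes the stem cell factor receptor and lies apart from the IgE receptor genes, on chromosome 5 from 75574916 to 75656722 (plus strand), with 21 exons and 5831 bases. The authors' deposited table lists Kit at -0.04 on the log2 scale, which is 0.971-fold (p = 0.910, adjusted p = 0.991). In 90.6 percent of rows the absolute change was larger. Measured from the median of all rows, Kit stood at 0.05, so its sign depends on the centring. GENCODE M21 gives Kit 2 coding transcripts whose coding lengths differ by 12 bases, and the table sums over both, so the isoforms were not told apart.

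The error of these fold changes is not a column of the table, but each value and its p-value imply one if the p-value came from a two-sided normal test of the deposited value, as in a Wald test. On that reading the implied standard errors of the log2 fold changes were 0.39 for Fcer1a, 0.37 for Ms4a2, 0.40 for Fcer1g and 0.38 for Kit. The implied 95 percent intervals on the fold scale ran from 0.630 to 1.80 for Fcer1a, from 0.644 to 1.78 for Ms4a2 and from 0.578 to 1.63 for Kit. On that reading a 2-fold difference lay outside those 3 intervals in either direction. The interval of Fcer1g, 0.798 to 2.37, included a 2-fold higher value and not a 2-fold lower one. Whether the deposited values were shrunken towards 0 is not known. If they were, these intervals are too narrow, and a 2-fold difference could lie within any of them. A change of 1.39 to 1.49 on the log2 scale (2.62- to 2.81-fold) would have been needed for a call at those errors. The order of the 4 values, from Fcer1g down to Ms4a2, Fcer1a and Kit, spans 0.50 on the log2 scale, and each interval contains the values of the other 3. Differences between members were not tested.

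**Figure D2:**
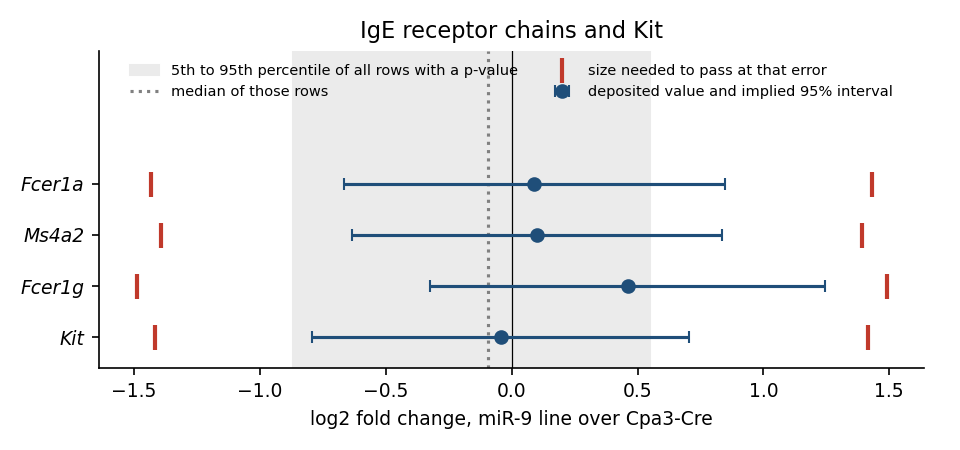
Each receptor gene's log2 fold change, miR-9 line over Cpa3-Cre (points, the authors' values), with the implied 95 percent interval as a horizontal bar and the size needed to pass the test as red ticks. The grey band covers the 5th to 95th percentile of all rows with a p-value, from -0.87 to 0.55, and the dotted line their median. All 4 points lie inside the band and all 4 intervals include 0.

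The fold changes of the receptor genes had larger implied errors than those of most genes that signal beneath them. The list for IgE receptor and KIT signalling has 46 genes with a p-value, and their median implied error was 0.26. Of these listed genes, 39 had a smaller implied error than any of the 4 receptor genes. For mast cell markers the median implied error was 0.38, beside 0.38 for the 4 receptor genes and 0.40 for all rows. Lists of related genes, given further below, mostly had larger errors than any of the 4 receptor genes. This held for 7 of 10 MS4A relatives (median 0.48) and 8 of 9 Fc receptor genes (0.46). It also held for 9 of 14 genes of the list of ITAM adaptors and partner receptors (0.49) and 5 of 6 genes of the KIT list (0.51). These errors are descriptions, computed from the authors' deposited table on the reading given above.

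None of the 4 gene models overlaps another row of the table or another GENCODE M21 gene. The 3 nearest genes with a p-value on each side of each receptor gene made 24 in all. They included no called gene, against 0.411 percent of all rows, and 18 had negative values per the authors' deposited table. Over all rows 40.2 percent were above 0. Apoa2, an apolipoprotein gene beside Fcer1g, stood at 0.31 per the authors' deposited table (p = 0.520). Olfactory receptor genes lie on both sides of Fcer1a. On the lower side the values per the authors' deposited table were -0.33 for Olfr1404, -0.31 for Olfr218 and -1.20 for Olfr16 (p = 0.0258 for the last, adjusted p = 0.506). On the upper side Olfr418-ps1 stood at -0.11 per the authors' deposited table (p = 0.837).

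Kit lies between Pdgfra and Kdr, genes of related receptor tyrosine kinases that act mainly in mesenchyme and endothelium. Pdgfra had the lowest value among the 24 neighbours, a log2 fold change of -1.47 per the authors' deposited table (p = 0.00628, adjusted p = 0.274). Its implied standard error of 0.54 was close to the largest of any row. Kdr stood at -0.35 per the authors' deposited table (p = 0.487).

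**Figure D3:**
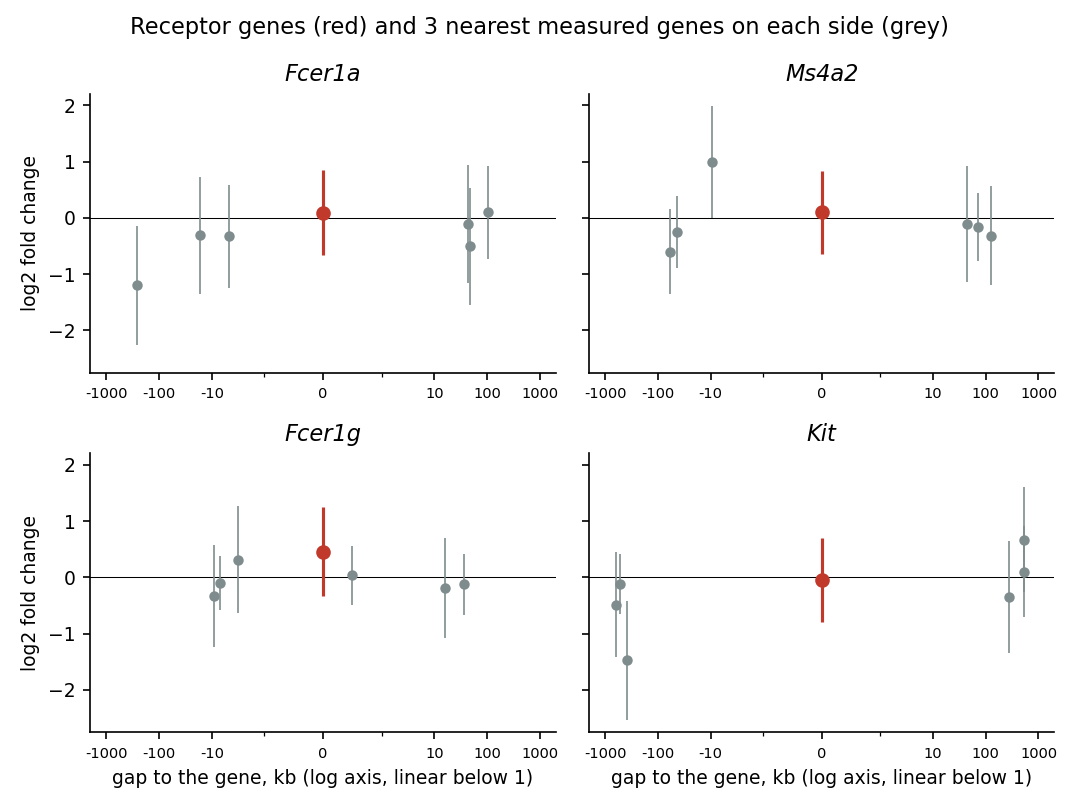
Log2 fold change in the authors' table (vertical axis) against the gap in kb to each receptor gene (horizontal axis, logarithmic beyond 1 kb, negative towards lower coordinates), with bars for the implied 95 percent intervals. Red points are the receptor genes and grey points the 3 nearest genes with a p-value on each side; 18 of the 24 grey points lie below 0.

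The promoters of the receptor chains are printed next because values for genes listed as their regulators follow. Each RefSeq window (GRCm38.p6) runs from 250 bases before to 50 bases after the annotated start, on the strand of the gene. Capitals mark GATA on either strand, read as GATA or TATC, in Fcer1a and Ms4a2, and in Fcer1g the letters GGAA or TTCC, the core of sites for ETS factors such as PU.1.
Fcer1a, chr1:173227180-173227479, minus strand: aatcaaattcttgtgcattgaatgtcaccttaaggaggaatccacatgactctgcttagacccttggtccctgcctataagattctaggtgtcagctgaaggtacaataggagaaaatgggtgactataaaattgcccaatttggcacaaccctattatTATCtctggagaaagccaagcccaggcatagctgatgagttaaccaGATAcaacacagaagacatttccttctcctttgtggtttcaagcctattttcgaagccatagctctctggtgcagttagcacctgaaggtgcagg
Ms4a2, chr19:11623670-11623969, minus strand: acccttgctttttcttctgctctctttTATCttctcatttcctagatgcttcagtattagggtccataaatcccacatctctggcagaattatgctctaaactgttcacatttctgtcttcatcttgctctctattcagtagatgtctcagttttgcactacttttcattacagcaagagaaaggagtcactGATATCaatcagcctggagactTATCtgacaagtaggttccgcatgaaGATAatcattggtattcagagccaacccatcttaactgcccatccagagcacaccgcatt
Fcer1g, chr1:171234300-171234599, minus strand: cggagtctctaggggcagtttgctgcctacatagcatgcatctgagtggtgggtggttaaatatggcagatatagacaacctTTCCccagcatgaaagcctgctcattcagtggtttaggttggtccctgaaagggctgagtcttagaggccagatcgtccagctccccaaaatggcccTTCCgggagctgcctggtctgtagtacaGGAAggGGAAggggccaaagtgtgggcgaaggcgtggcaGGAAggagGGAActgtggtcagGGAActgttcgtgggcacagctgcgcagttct

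Ms4a2 held 5 GATA matches, of which 2 overlap in the run GATATC, and 1.87 percent of 32544 promoter windows held at least as many. Fcer1a held 2, where 28.6 percent of windows held at least 2. Fcer1g held 1, where 57.7 percent held at least 1. Kit held none in either of its 2 RefSeq windows. The GGAA core occurred 7 times in Fcer1g (at least as many in 7.99 percent of windows), 2 times each in Fcer1a and Ms4a2 and once in Kit. The E-box CANNTG, a core that MITF and TAL1 can bind, occurred 3 times in Fcer1a, 2 times in Fcer1g, once in Kit and not in Ms4a2, where 72.3 percent of windows held at least 1. The windows of Fcer1a and Ms4a2 were poor in G and C (43.7 and 41.0 percent), Fcer1g was near the middle at 55.7 percent, and Kit was rich at 69.0 percent.

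None of the genes listed as transcription factors or other regulators of the receptor genes passed the test either. Whether each acts at these promoters was not tested. Of 27 genes in this list with a p-value, 0 were called, against 0.411 percent of all rows. An unadjusted p under 0.05 was found for 1 of the 27, against 7.92 percent of all rows. It was the histone deacetylase gene Hdac1, at 0.49 per the authors' deposited table (p = 0.0231, adjusted p = 0.485). Spi1, the gene of PU.1, stood at 0.09 per the authors' deposited table (p = 0.837). Gata1 stood at 0.06 per the authors' deposited table (p = 0.849) and Gata2, which maintains mast cell identity, at -0.06 (p = 0.829). Mitf stood at 0.05 per the authors' deposited table (p = 0.813) and Tal1, a blood lineage E-box factor, at -0.17 (p = 0.613). The median of the 27 was 0.06, beside -0.09 for all rows.

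No ligand gene or related kinase gene of the KIT list with a p-value was called, against 0.411 percent of all rows. The 6 genes with a p-value in this list are the ligand genes Kitl and Flt3l and the receptor kinase genes Pdgfra, Pdgfrb, Flt3 and Kdr, the last from the VEGF receptor family. Of these 6, 1 was above 0 (Flt3l, 0.15 per the authors' deposited table), against 40.2 percent of all rows, and 2 had an unadjusted p under 0.05, against 7.92 percent. Their median was -0.39. Csf1 and Csf1r are also in this list, have no p-value and were not tested. Kitl, which encodes stem cell factor, stood at -1.07 per the authors' deposited table (p = 0.0339, adjusted p = 0.553). The other with an unadjusted p under 0.05 was Pdgfra, given above.

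No relative of the IgE receptor chains with a p-value was called either, against 0.411 percent of all rows. Of 9 Fc receptor and Fc receptor-like genes with a p-value, 2 were above 0, against 40.2 percent of all rows, and 3 had an unadjusted p under 0.05, against 7.92 percent. The median of the 9 was -0.56. Fcgr3, the low-affinity IgG receptor that uses the gamma chain, stood at 0.08 per the authors' deposited table (p = 0.852). Fcgrt, the neonatal Fc receptor gene, stood at -1.30 (p = 0.0117, adjusted p = 0.368) and Fcamr, a receptor gene for IgM and IgA, at -0.91 per the authors' deposited table (p = 0.0496). Fcgr2b, the inhibitory IgG receptor of mast cells, has no p-value and a log2 fold change of 0.60 per the authors' deposited table.

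Of the 10 relatives of Ms4a2 with a p-value, 1 was above 0, against 40.2 percent of all rows. The median of the 10 was -0.78, while Ms4a2 itself was at 0.10. Of the 10, 7 had a larger implied error than any receptor gene, and the difference from Ms4a2 was not tested. At an adjusted p under 0.05 none was called, against 0.411 percent of all rows. Of the 10, 4 had an unadjusted p under 0.05, against 7.92 percent of all rows. Markers of dendritic cells and lymphocytes were also low, with all 8 that have a p-value below 0 (median -0.52). None of these 8 was called, against 0.411 percent of all rows, and their part in the values of the relatives was not tested. Ms4a4b, a family member best known from T cells, stood at -1.83 per the authors' deposited table (p = 0.000360, adjusted p = 0.0657). Tmem176b, a more distant relative, stood at -1.42 per the authors' deposited table (adjusted p = 0.0729). Both would have passed at an adjusted p under 0.10, which 0.968 percent of all rows met, as would Tmem176a, which is named because that count is small (-1.38 per the authors' deposited table, adjusted p = 0.0703). Whether fewer cells of another type or less RNA per cell stands behind such values cannot be told apart in bulk RNA.

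The ITAM list holds other ITAM adaptors, receptors that pair with the gamma chain and related genes. It had 4 positive and 10 negative values among 14 with a p-value (median -0.36). Over all rows 40.2 percent were above 0. None of the 14 was called, against 0.411 percent of all rows. Tyrobp, the gene of the ITAM adaptor DAP12, stood at 0.44 per the authors' deposited table (p = 0.390), close to the value of Fcer1g. Cd3d, a T cell receptor chain gene, had the 1 unadjusted p under 0.05 in this list, against 7.92 percent of all rows. It stood at -1.03 per the authors' deposited table (p = 0.00887, adjusted p = 0.325).

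Beneath the receptors, 2 kinases of the Src family changed in opposite directions. Of 46 signalling genes with a p-value, 1 rose and 1 fell, against 0.245 and 0.166 percent of all rows. Fyn, whose product couples the IgE receptor to the adaptor GAB2, rose by 1.97 on the log2 scale, or 3.91-fold, per the authors' deposited table (adjusted p = 0.00375). Fgr, another Src family kinase of myeloid cells, fell by 2.50 on the log2 scale and was thus 5.67-fold lower per the authors' deposited table (adjusted p = 0.000623). The kinases and the adaptor closest to the ITAMs stood near 0. Per the authors' deposited table Lyn was at -0.02 (p = 0.926), Syk at 0.12 (p = 0.704) and the adaptor gene Lat at 0.05 (p = 0.876). Rasgrp1, a RAS activator gene, stood at -0.79 per the authors' deposited table (p = 0.0243). The median of the list was 0.12.

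**Figure D4:**
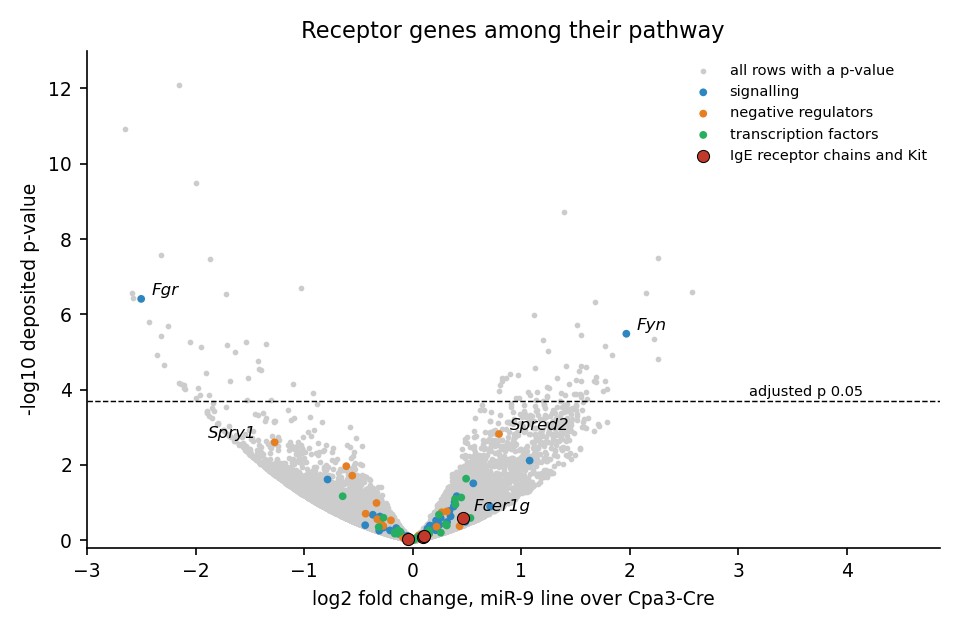
Log2 fold change (horizontal axis) against the -log10 of the deposited p-value (vertical axis) for all rows with a p-value (grey), with the receptor genes in red, signalling genes in blue, negative regulators in orange and transcription factors in green. The dashed line marks an adjusted p of 0.05; 1 row lies above the axis, Fyn and Fgr lie above the line, and the 4 receptor genes lie at the foot of the plot.

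Negative regulators of both receptors gave no call among 27 with a p-value, against 0.411 percent of all rows, and their median was -0.03. Of the 27, 12 were positive and 15 negative, where 40.2 percent of all rows were above 0. An unadjusted p under 0.05 was found for 1 positive and 3 negative values, against 7.92 percent of all rows in either direction. Spred2, an inhibitor of RAS signalling downstream of KIT, stood at 0.79 per the authors' deposited table (p = 0.00150, adjusted p = 0.125). Spry1, another inhibitor of receptor tyrosine kinase signalling, stood at -1.27 per the authors' deposited table (p = 0.00250, adjusted p = 0.166). Socs1, an inhibitor of cytokine signalling, stood at -0.61 per the authors' deposited table (p = 0.0108, adjusted p = 0.353).

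Genes for the folding, transport and turnover of the receptors had 16 positive values among 22 with a p-value, against 40.2 percent of all rows. Their median was 0.13, and none was called, against 0.411 percent of all rows. An unadjusted p under 0.05 was found for 2 of the 22, against 7.92 percent of all rows. Both are chaperones of the endoplasmic reticulum, where the receptor is assembled. Calr, the calreticulin gene, stood at 0.78 (p = 0.00442, adjusted p = 0.220) and Pdia3, a disulfide isomerase gene, at 0.61 per the authors' deposited table (p = 0.0245, adjusted p = 0.495).

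**Figure D5:**
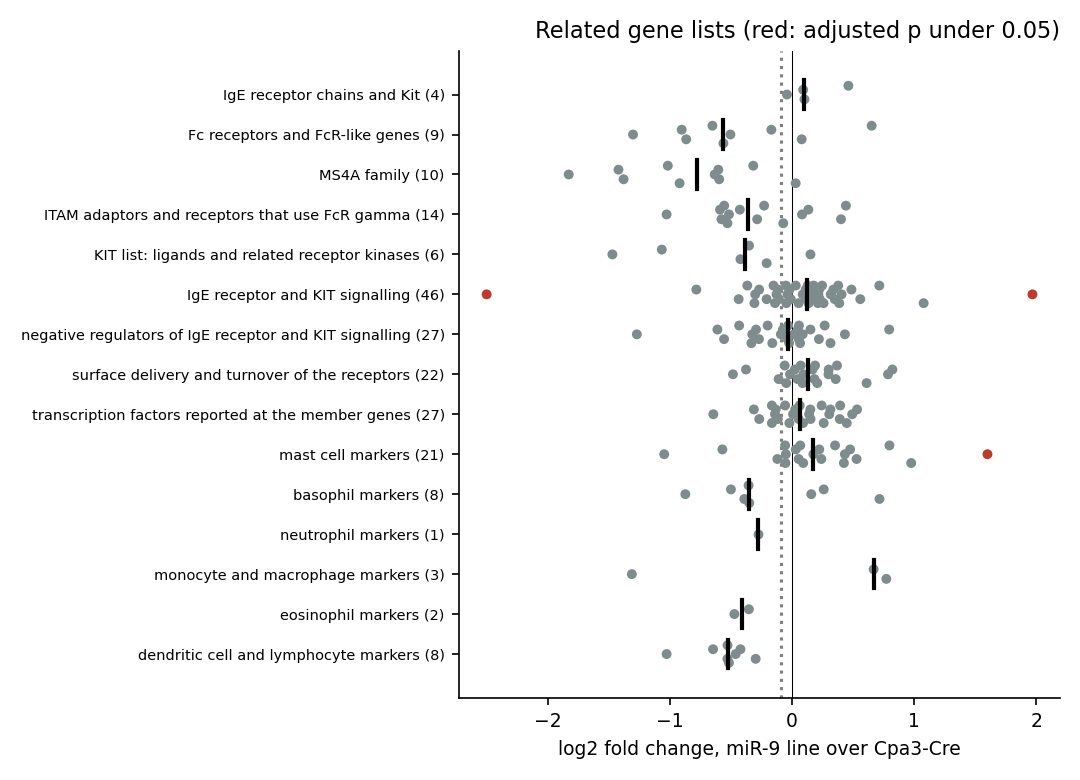
Log2 fold change of every gene with a p-value in each list (points), with the number of genes in brackets, the list median as a black bar and the median of all rows as a dotted line; red points passed at an adjusted p under 0.05. The median of the 4 receptor genes is 0.10, that of the MS4A family -0.78, and the 3 red points are Fyn, Fgr and Tpsb2.

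Mast cell markers were checked beside the receptor genes. Of 21 with a p-value, 15 were above 0, against 40.2 percent of all rows, and 1 rose, against 0.245 percent. Their median was 0.17. The gene called was the tryptase gene Tpsb2, which rose by 1.60 on the log2 scale, or 3.03-fold, per the authors' deposited table (adjusted p = 0.0149). The chymase gene Cma1, which the series title names, stood at 0.97 (p = 0.0176, adjusted p = 0.442) and Enpp3, a surface ectoenzyme of mast cells and basophils, at -1.05 per the authors' deposited table (p = 0.0388). Basophils also carry the IgE receptor, and of their markers the defining protease genes Mcpt8 and Prss34 have no p-value. None of the 8 basophil markers tested was called, against 0.411 percent of all rows, and their median was -0.35. Among them Ifitm1 stood at 0.72 (p = 0.00135, adjusted p = 0.118) and Il6 at -0.88 per the authors' deposited table (p = 0.0229). A p-value was given for 1 of 14 neutrophil markers, 3 of 18 monocyte and macrophage markers and 2 of 9 eosinophil markers. For dendritic cell and lymphocyte markers it was given for 8 of 15. No marker of these other cell types with a p-value was called, against 0.411 percent of all rows. Some listed markers have no row. Of the rows present, 13 of 14, 14 of 17, 6 of 8 and 6 of 14 lacked a p-value, in that order. Over all rows that share was 5.78 percent. Markers without a p-value were not tested, so the absence of calls does not cover them. The 3 monocyte and macrophage markers had a median of 0.67. Cx3cr1 stood at 0.77 (p = 0.0970), Vcan at 0.67 (p = 0.216) and Apoe at -1.31 per the authors' deposited table (p = 0.00326, adjusted p = 0.190). Both eosinophil markers were below 0 (median -0.41), as was the neutrophil marker (-0.28). The 8 dendritic cell and lymphocyte markers ran from -1.03 for Cd3d, which is also in the ITAM list, to -0.30 for Siglech per the authors' deposited table. The part of other cell types in the values of the receptor genes was not tested, and fold changes do not show whether a marker is expressed.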

How the data were processed

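RNA of bone marrow-cultured mast cells was sequenced as strand-marked, ribosomal RNA-depleted libraries of paired 50-base reads, about 70000000 per sample per the labels' protocols. The submitters' processing notes name STAR, HTSeq, DESeq2, Cuffdiff and DESeq with GRCm38 and mm10, without roles or versions. Per the labels' design text, the authors took DESeq2 for the statistics and a p-value threshold of 0.0001. Per the file headers, the authors deposited a log2 fold change and a p-value for each gene model; no source used here states the filters, the model formula or any shrinkage of the fold changes towards 0. Shrunken values would understate changes and narrow the implied intervals. The 5 columns of values per library match no sample's labels and were not used, so the planned count test was not run, no depth per gene is known, and genes with a like pattern over samples were not sought.

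Here the 24071 deposited p-values were adjusted (Benjamini-Hochberg, statsmodels 0.14.6) and called under 0.05. Folds are powers of 2 of the deposited values. The implied standard error is the absolute log2 fold change divided by the normal quantile of its p-value (scipy 1.17.1). Rows were matched to GENCODE M21 by symbol and position (23698), or by 80 percent reciprocal overlap (1476); 375 had no match. Python 3.11.15, numpy 2.4.6 and pandas 2.3.3 were used. The arithmetic of the adjustment and of the implied error was checked on simulated p-values, and the sequence search on planted matches. The simulated p-values were drawn from a normal test, so they could not check that reading of the deposited p-values. Lists are described by counts and medians without a set test. The text names the 4 receptor genes, their 3 nearest neighbours with a p-value on each side where they bear on the account, and from each list the called genes, up to 2 per direction of those with an unadjusted p under 0.05, and 13 core genes in any case; some genes that this rule picks are not reported here. Spi1 is named outside this rule because the account names its product, PU.1. The members and lists were chosen with earlier results of these data known.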

Additional observations from a re-analysis of the deposited data

How the results depend on the processing

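The 4 receptor genes stayed uncalled when p-values were adjusted over the 16483 protein-coding rows alone, by the Benjamini-Yekutieli method, at an adjusted p under 0.10 and at the unadjusted threshold of 0.0001. Subtracting the median of all rows or of protein-coding rows (both -0.09) shifts every gene alike and turns the sign of any gene between that median and 0. Of the genes named in the text by the stated rule, it moved Kit to 0.0491 and 0.0481, Lyn to 0.0701 and 0.0691, and Gata2 to 0.0341 and 0.0331. Over all lists, the count of genes called lower moved from 1 to 2 with protein-coding rows alone, where Ms4a4b passed (adjusted p = 0.0487). It moved to 4 at an adjusted p under 0.10. The deposited p-values are the same in each case, so these moves follow from the rows adjusted over or from the threshold. Over all rows, 99 calls became 233 at an adjusted p under 0.10 and 24 by Benjamini-Yekutieli. No paired analysis was possible because the comparison is the authors' own and the columns per library carry no replicate number of the labels; for the same reason the count-model, filter, block and leave-one-out alternatives were not run. The intervals rest on the reading of the p-values as a normal test of the deposited fold changes.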

Other observations

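Several genes at the core of IgE receptor and KIT signalling carry a log2 fold change without a p-value, per the authors' deposited table. They are 5 of the 51 genes of the signalling list, among them Tec, Plcg2, Sh3bp2 and Mapk3. With them are 3 of the 30 negative regulators that the table holds (Cbl, Rabgef1 and Siglece). These names were chosen after their values were seen, because the counts are small. Over all rows the share without a p-value was 5.78 percent (1478 of 25549). No source used here states why a p-value is missing; these genes were not tested, and neither was the inhibitory receptor gene Fcgr2b.

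The implied standard errors had a sharp upper end. Over all rows they ranged from 0.12 to 0.54 with a median of 0.40, and 27.5 percent of rows lay within 0.05 of the largest. The receptor genes, at 0.37 to 0.40, stood near the middle of that range, while Pdgfra was at the upper end. Whether shrinkage of the fold changes bears on this upper end was not tested.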
